A study of Mus musculus with 6 samples.

Results

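The 10 genes *Sycp1*, *Sycp2*, *Sycp3*, *Syce1*, *Syce2*, *Tex12*, *Smc1b*, *Rec8*, *Hormad1* and *Dmc1* encode proteins of the meiotic chromosome axis, the synaptonemal complex and meiotic recombination. They were taken as every probe on the array whose gene name is one of these symbols, which gave 16 probes of 10 genes among 41174 probes with 27376 gene names. Total RNA was measured from the testes of 3 Prss55-/- mice (labelled Prss55KO) and 3 wt mice, 1 single-colour whole mouse genome array per mouse. All mice were males aged 6 to 8 weeks on a mixed 129Sv/C57BL/6 background, and the Prss55-/- mice carry the testis serine protease gene *Prss55* disrupted in the germ line by homologous recombination, with a PGK-Neo cassette in the targeting vector. Slide 1 held the 3 Prss55-/- mice, slide 2 held wt replicates 1 and 2, and slide 3 held wt replicate 3, which means that genotype and slide cannot be told apart in any value below. The scanner software called 69.5% to 72.9% of the spots of each array well above background and 0 saturated, and arrays correlated at 0.993 to 0.997 within a genotype and at 0.992 to 0.994 between genotypes. Signals below are log2 values, quantile-normalized over the 6 arrays; differences are Prss55-/- minus wt, tested with limma and adjusted over 28606 probes by the Benjamini-Hochberg method. The p-values rest on the spread between the arrays of these mice within a genotype. For each probe limma draws this spread toward a value common to all tested probes. With 1 array per mouse, differences between mice and between arrays cannot be told apart in the spread. In wt testis this spread also holds the difference between slides 2 and 3.

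In meiotic prophase each chromosome folds into loops anchored on a protein axis built of cohesins and of the coiled-coil proteins SYCP2 and SYCP3. The axes of paired homologues are then zipped together by the synaptonemal complex, in which SYCP1 spans the gap and a central element holds its overlapping ends. DNA breaks made on purpose along the axes are repaired by strand exchange with the homologue, which yields crossovers. In testis these genes are switched on as spermatogonia enter meiosis, so whole-testis signal depends on how many spermatocytes there are and how much RNA each holds, which cannot be told apart here.

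The probes are 60 bases long, and the array files place them on the mouse build mm9. Probes of 5 genes are shown as examples of what was measured in each structure: the filament of the synaptonemal complex, its central element, the axis core and the meiotic cohesin. Those of *Sycp1*, *Sycp2*, *Sycp3* and *Rec8* cover more genome than their own length (672, 1365, 3091 and 385 bases), as a probe across an exon junction does, and each of the 5 sequences has a reading frame with no stop codon. The genome positions are chr3:102657397-102658068 for *Sycp1*, chr9:50365525-50365584 for *Tex12*, chr2:178114228-178115592 for *Sycp2*, chr10:87932348-87935438 for *Sycp3* and chr14:56243204-56243588 for *Rec8*. The strand is minus for the first 3 and plus for the other two. No capitals are used in them, since the whole probe is the measured stretch. Exon and UTR annotation of mm9 was not used here.
Sycp1 A_51_P340003: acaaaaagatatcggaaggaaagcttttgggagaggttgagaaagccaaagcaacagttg
Tex12 A_52_P215798: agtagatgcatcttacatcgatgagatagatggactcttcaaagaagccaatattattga
Sycp2 A_51_P274409: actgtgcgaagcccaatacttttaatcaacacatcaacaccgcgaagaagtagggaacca
Sycp3 A_51_P274465: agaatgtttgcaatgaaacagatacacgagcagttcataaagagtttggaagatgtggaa
Rec8 A_52_P459732: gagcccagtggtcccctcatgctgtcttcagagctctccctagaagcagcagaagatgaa

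All 10 genes were detected: on every array 15 of the 16 probes lay well above background, and these were tested. The sixteenth, *Tex12* probe A_52_P1091857, was not well above background on any array, and its coordinates run against the strand of *Tex12*, unlike those of 99.2% of 24801 probes with a strand to compare. Ranked by brightness among all probes of its array, the brightest probe of each gene lay between the 63.2 and the 99.8 percentile on every array, with a median of 89.1. Syce1 was at 99.7 ± 0.0088 in Prss55-/- and 99.8 ± 0.019 in wt testis (SD, n = 3 each), and Dmc1 at 63.8 ± 0.51 and 66.2 ± 0.16. These ranks describe brightness, which also depends on the probe, and give no order of transcript amounts between genes. The probes of 1 gene show this: those of *Sycp2* lay at the 88.6, 84.5 and 61.6 percentile in wt testis.

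**Figure D1:**
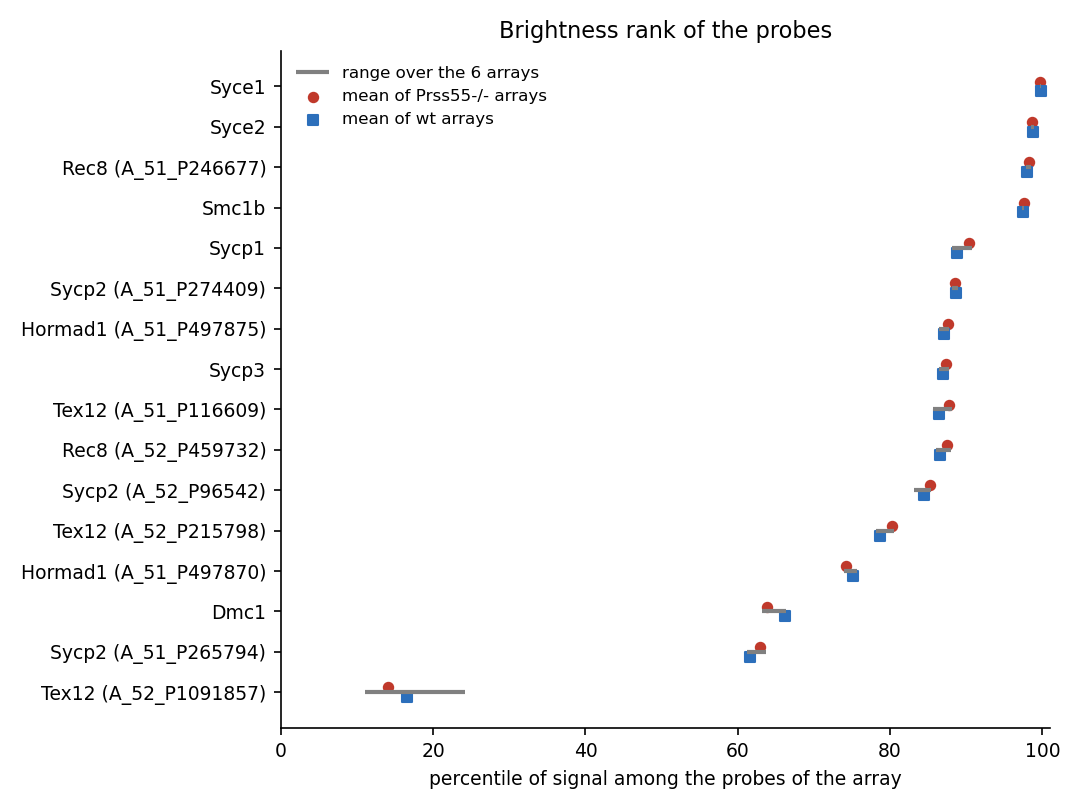
Percentile of each probe's signal among all probes of its array (x axis) for the 16 probes (y axis). Red circles are means of the 3 Prss55-/- arrays, blue squares means of the 3 wt arrays and grey lines the range over the 6 arrays; every probe but 1 of *Tex12* lies at or above the 61.2 percentile on all arrays.

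The targeted gene was checked first. The *Prss55* probe read 15.08, 14.95 and 14.93 on the Prss55-/- arrays and 15.87, 15.77 and 16.01 on the wt arrays. It was lower on every Prss55-/- array, by -0.90 (SE 0.080, limma adjusted p = 0.010), and stayed well above background on all 6. The call was lost when Prss55-/- replicate 2 (limma adjusted p = 0.060), Prss55-/- replicate 3 (0.070) or wt replicate 1 (0.063) was left out. The study itself reports that *Prss55* expression was absent in the Prss55-/- mice, by RT-PCR for RNA and by Western blotting and immunofluorescence for protein. Whether the array probe lies in the deleted part is not given in the sources used here.

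Signals of the 10 meiotic genes differed little between Prss55-/- and wt testis. Of their 15 tested probes 0 passed a limma adjusted p below 0.05, against 1.21% of all probes tested, a share at which 15 probes would give less than 1 call. At an unadjusted p below 0.05 stood 5 probes, against 19.1% of all probes; 4 of them were higher in Prss55-/- testis (9.82% of all probes) and 1 was lower (9.29%). The same 5 probes, of *Sycp1*, *Tex12* (both probes), *Sycp2* and *Dmc1*, were those whose 2 genotypes did not overlap, which held for 26.3% of all probes, 13.4% higher and 12.9% lower. Differences were above 0 for 10 probes and below 0 for 5, where 50.6% of all probes were above 0. The median difference was 0.091 over the 15 probes and 0.0019 over all probes tested, and 0.059 over the 10 genes by their brightest probe. Array by array, the median of the 10 genes against the wt mean was 0.031, 0.051 and 0.043 in Prss55-/- replicates 1, 2 and 3. In wt replicates 1, 2 and 3 it was 0.023, 0.048 and -0.070. Without wt replicate 3, the only array on slide 3, the median difference of the 10 genes was 0.024. The intervals are given per probe and cover the difference between the arrays of the 2 genotypes, with any difference between slides included. The 95% interval of all 15 probes lay within 1.5-fold in both directions, which held for 85.1% of all probes, and their bounds reached from 0.753-fold to 1.42-fold.

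**Figure D2:**
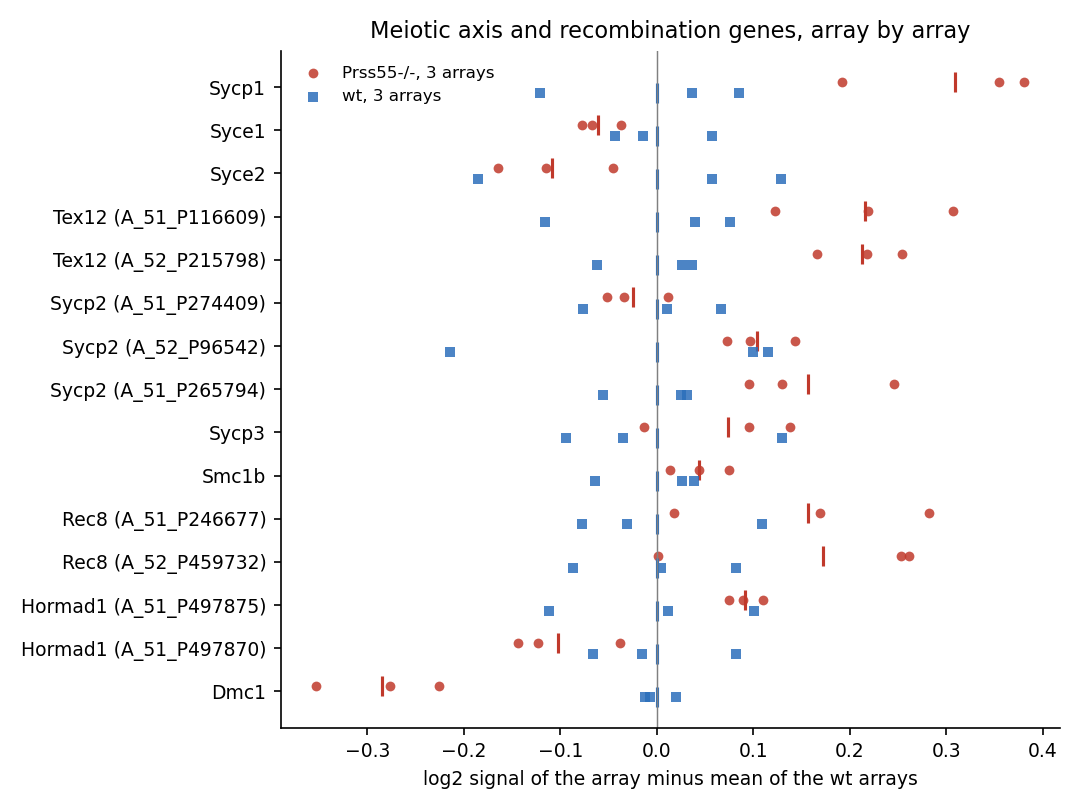
Log2 signal of each array minus the mean of the wt arrays (x axis) for the 15 tested probes (y axis). Red circles are the 3 Prss55-/- arrays, blue squares the 3 wt arrays, and vertical ticks the means; both genotypes are separate for *Sycp1*, both *Tex12* probes and *Sycp2* probe A_51_P265794 (higher in Prss55-/-) and *Dmc1* (lower), and intermixed for the other 10.

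*Sycp1* encodes the transverse filament that links the paired axes. Its probe read 12.93, 13.10 and 13.12 in the Prss55-/- mice and 12.78, 12.83 and 12.62 in the wt mice. Every Prss55-/- mouse was above every wt mouse, and the Prss55-/- replicate nearest to wt was replicate 1. The difference of 0.31 (SE 0.081), a 1.24-fold ratio with a 95% interval from 1.08 to 1.42, was the highest of the 10 genes and did not pass the adjusted threshold (limma adjusted p = 0.13; two-sided exact permutation p = 0.1, the smallest that 3 mice against 3 allow). Over 16 other settings it ranged from 0.25 to 0.37, with limma adjusted p from 0.078 to 0.34.

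The central element, which joins SYCP1 molecules in the middle of the complex, is represented by *Syce1*, *Syce2* and *Tex12*. *Tex12*, whose protein forms long fibres with SYCE2, was measured by 2 tested probes that lie next to each other. The brighter read 12.43, 12.53 and 12.62 in Prss55-/- testis and 12.39, 12.35 and 12.20 in wt testis. The other read 11.36, 11.45 and 11.41 against 11.23, 11.22 and 11.13. On both probes the Prss55-/- mice were above the wt mice, by 0.22 (SE 0.076, limma adjusted p = 0.21) and 0.21 (SE 0.052, limma adjusted p = 0.11). Both probes report on the same transcripts and count as 1 observation. *Syce2* went the other way in its mean: 16.03, 15.96 and 15.91 in Prss55-/- testis against 16.13, 16.20 and 15.89 in wt testis, a difference of -0.11 with a 95% interval from -0.33 to 0.11 (limma adjusted p = 0.56). Its lowest value came from wt replicate 3, so the genotypes overlapped. *Syce1*, first in brightness rank, read 17.13, 17.09 and 17.10 against 17.16, 17.23 and 17.13. Its difference of -0.06 had an interval from -0.18 to 0.06 (limma adjusted p = 0.53), and the genotypes overlapped. The mean differences of the 3 central element genes did not share a direction.

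*Sycp2* and *Sycp3* encode the rod-like core of the axis. *Sycp3* read 12.54, 12.50 and 12.39 in Prss55-/- testis and 12.37, 12.31 and 12.53 in wt testis. The genotypes overlapped, with a difference of 0.07 and an interval from -0.11 to 0.26 (limma adjusted p = 0.64). *Sycp2* had 3 probes, which differed from each other. The brightest, A_51_P274409, gave 12.65, 12.67 and 12.71 against 12.77, 12.71 and 12.62, a difference of -0.02. The second, A_52_P96542, differed by 0.10 and held the widest spread among the tested probes, 0.19 (SD, n = 3) in wt testis, because wt replicate 2 read 11.81 and the other two wt mice 12.12 and 12.13. The dimmest, A_51_P265794, gave 9.24, 9.20 and 9.35 against 9.05, 9.13 and 9.14, with every Prss55-/- mouse higher. Its difference was 0.16 (SE 0.059, limma adjusted p = 0.23), so the answer for *Sycp2* depends on the probe that stands for it. *Hormad1*, a HORMA domain protein that marks axes not yet synapsed, had 2 probes of opposite sign. A_51_P497875 read 12.49, 12.51 and 12.53 against 12.43, 12.52 and 12.31, and A_51_P497870 read 10.64 ± 0.056 against 10.74 ± 0.075 (SD, n = 3 each). Their differences of 0.09 and -0.10 both had intervals that include 0, and in both the genotypes overlapped.

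The meiotic cohesins hold sister chromatids together along the axis, SMC1B as a ring subunit and REC8 as the kleisin that closes the ring. *Smc1b* read 15.29, 15.25 and 15.32 in Prss55-/- testis and 15.27, 15.28 and 15.18 in wt testis. The values overlapped, and the difference of 0.04 had an interval from -0.08 to 0.17 (limma adjusted p = 0.67). *Rec8* read 15.53, 15.68 and 15.79 against 15.43, 15.62 and 15.48 on its brighter probe and 12.33, 12.59 and 12.58 against 12.24, 12.33 and 12.41 on the other. On both probes Prss55-/- replicate 1 fell among the wt mice while replicates 2 and 3 stood above them. The differences were 0.16 (interval -0.05 to 0.37, limma adjusted p = 0.38) and 0.17 (interval -0.05 to 0.39, limma adjusted p = 0.35).

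*Dmc1* encodes the meiosis-specific recombinase that carries out strand exchange between homologues. Its probe, at chr15:79392424-79392483 on the minus strand of mm9, read 9.38, 9.43 and 9.30 in Prss55-/- testis and 9.67, 9.65 and 9.64 in wt testis. All 3 Prss55-/- mice lay below all 3 wt mice, and the wt mice differed from each other by less than those of any other tested member probe (SD 0.017, n = 3). The difference of -0.29 (SE 0.051), 0.821-fold with a 95% interval from 0.753 to 0.895, had the lowest p of the members and missed the threshold (limma unadjusted p = 0.0013, adjusted p = 0.065; two-sided exact permutation p = 0.1). Over the 16 other settings it ranged from -0.31 to -0.25, with adjusted p from 0.059 to 0.24.

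**Figure D3:**
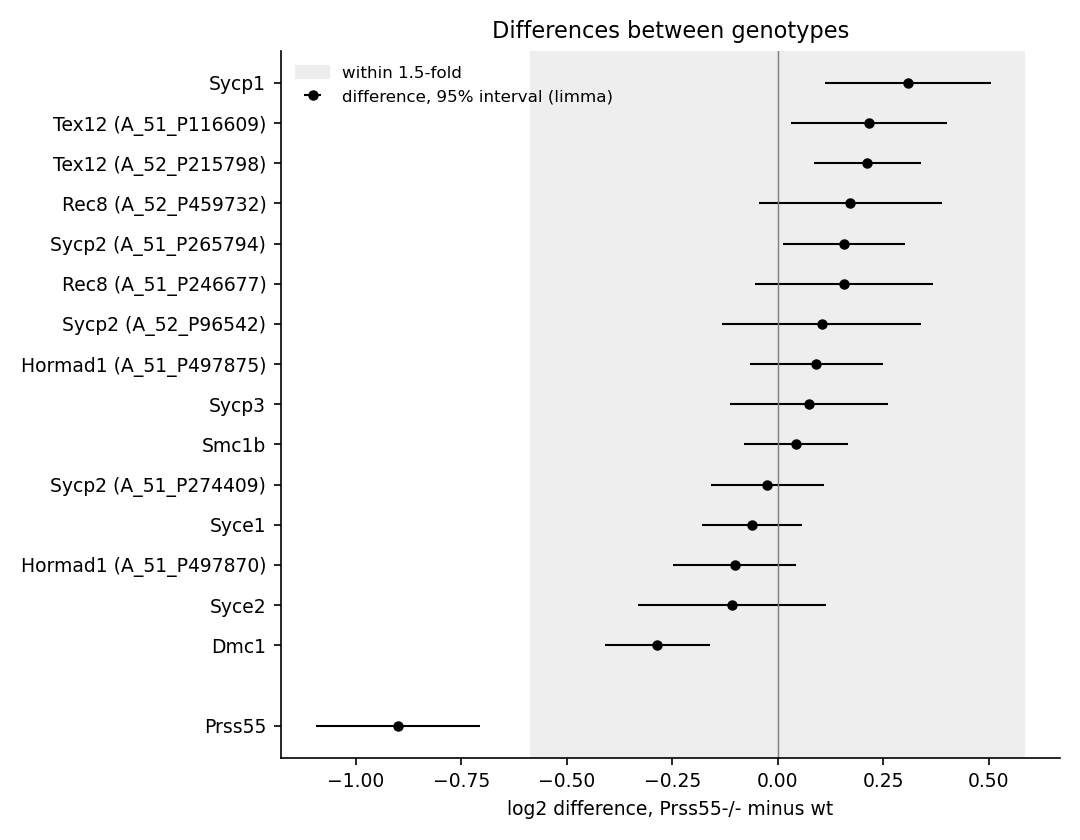
Log2 difference, Prss55-/- minus wt (x axis), with its 95% limma interval for the 15 tested probes and for *Prss55* (y axis). The grey band marks 1.5-fold in both directions; the intervals of all 15 probes lie inside it and that of *Prss55* outside it.

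The rest of the meiotic machinery was described from a list of 39 other genes, of which 35 have a probe and 32 were tested. None passed (0 at a limma adjusted p below 0.05, 6 at an unadjusted p below 0.05, all 6 higher in Prss55-/- testis), and 24 were above 0 and 8 below, with a median difference of 0.036. Over all probes tested 1.21% passed the adjusted threshold, 19.1% the unadjusted one (9.82% higher), and 50.6% were above 0. The lowest p was that of *Ccnb1ip1*, which encodes the crossover factor HEI10 and lies on chromosome 14, as *Prss55* does. It read 11.34, 11.46 and 11.47 in Prss55-/- testis against 11.16, 11.20 and 11.10 in wt testis, without overlap, a difference of 0.27 (limma adjusted p = 0.090). *Msh4*, a crossover protein of the MutS family, differed by 0.19 (adjusted p = 0.16), again without overlap. *Tex15*, needed for break repair in spermatocytes, read 12.06, 12.55 and 12.65 against 11.91 ± 0.088 in wt testis (SD, n = 3). Its difference of 0.51 (adjusted p = 0.17) was the highest of the list, and Prss55-/- replicate 1 lay closest to wt. *Syce3*, another central element gene, had the same layout, with 13.12, 13.66 and 13.65 against 13.06, 12.97 and 13.10, and a difference of 0.43 (adjusted p = 0.21). Without Prss55-/- replicate 1 these were the 2 genes of the list past the threshold, at 0.69 (limma adjusted p = 0.017) for *Tex15* and 0.61 (limma adjusted p = 0.015) for *Syce3*, while 0 of the 10 members passed.

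By role and brightest probe, the median was highest for the 2 other synaptonemal complex genes, at 0.28, with *Syce3* at 0.43 and *Six6os1* at 0.13 (limma adjusted p = 0.23). The other 3 *Six6os1* probes stood at 0.13 without overlap, and at 0.05 and -0.04 with overlap. *Syce3* and *Tex15* lay above the 95th percentile of all tested probes, 0.33. The 3 other axis and cohesin genes had a median of 0.11; *Hormad2* (0.21, limma adjusted p = 0.20) and *Trip13* (0.11, limma adjusted p = 0.30), the ATPase that removes HORMAD proteins from synapsed axes, were above 0 and *Stag3* was at -0.07. The 4 tested genes of break formation had a median of -0.0032, with *Rec114* highest at 0.14 (limma adjusted p = 0.35). The dimmer *Rec114* probe stood at 0.18 without overlap (limma adjusted p = 0.21). The 7 genes of strand invasion, the step in which *Dmc1* acts, ranged from -0.10 to 0.51 with a median of 0.038. Among them *Psmc3ip*, whose protein HOP2 assists DMC1, stood at 0.08 (limma adjusted p = 0.40). Of the 7, 6 were above 0, and only 1, *Tex15*, stood at a limma unadjusted p below 0.05. The 10 genes of crossover formation and mismatch repair had a median of 0.070, among them the nuclease gene *Exo1* (0.10, limma adjusted p = 0.28), and the 6 of telomere attachment a median of 0.016.

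The genes of mitotic cohesin, *Smc1a*, *Smc3*, *Rad21*, *Stag1* and *Stag2*, were set beside those of meiotic cohesin. None of the 5 passed (0 at a limma adjusted p below 0.05, 1 at an unadjusted p below 0.05), with a median of 0.067. *Stag2* read 8.81, 8.84 and 8.95 against 8.51, 8.62 and 8.64 on its brightest probe, without overlap, a difference of 0.28 (limma adjusted p = 0.096). The differences of the others were 0.01 for *Smc1a*, 0.10 for *Smc3*, -0.16 for *Rad21* and 0.07 for *Stag1*, all by the brightest probe. Other probes of these genes differed from the brightest in size or sign. The second *Rad21* probe stood at 0.12 without overlap, opposite in sign to the first, and the second *Smc3* probe at 0.19 without overlap (limma adjusted p = 0.20). The other *Stag1* probes stood at 0.22 (limma adjusted p = 0.10) and 0.10, both without overlap, and at -0.10 with overlap. Those of *Stag2* stood at 0.13 without overlap (limma adjusted p = 0.27) and at 0.05 with overlap (limma adjusted p = 0.63). The second *Smc1a* probe stood at 0.0052 with overlap.

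Markers of the cells in the testis were read as lists beside these values, and their counts stand against 19.1% of all probes at an unadjusted p below 0.05 and 50.6% above 0. Pachytene spermatocyte markers, the germ cell stage with complete synapsis, had a median of -0.04 over 10 genes, with 3 above 0 and 7 below. Their summed signal was 542936 to 563598 in Prss55-/- and 524304 to 568625 in wt testis, which overlap. Such sums are of linear signal and mostly follow the brightest genes of a list. In the pachytene list these were *Ldhc* and *Pgk2*, at a mean log2 signal of 18.17 and 17.34 in wt testis. Spermatogonial markers had a median of 0.10 over 8 tested genes, and summed signals of 31752 to 34268 against 32947 to 36628. For round spermatids all 10 markers were above 0, with a median of 0.12, 5 at an unadjusted p below 0.05, and summed signals of 389793 to 396679 against 346684 to 381730, which do not overlap. Leydig cell markers had a median of -0.56 over 7 tested genes, 6 of them below 0 and 3 at an unadjusted p below 0.05. Their summed signal was 34762 to 53690 in Prss55-/- and 53524 to 61604 in wt testis, and their median against the wt mean was -0.04 in Prss55-/- replicate 1, -0.89 in replicate 2 and -0.56 in replicate 3. Macrophage markers had a median of -0.18 over 6 genes, all 6 below 0, and summed signals of 2934 to 3163 against 3294 to 3312, which do not overlap. All 6 tested markers of peritubular and vascular cells were below 0 too, with a median of -0.09 and summed signals of 22081 to 25972 against 25466 to 26107, which overlap. Sertoli cell markers had a median of -0.02 and those of elongating spermatids -0.02. Every marker counted was well above background by the filter, and 0 genes of these lists passed the limma adjusted threshold. At an unadjusted p below 0.05 stood 2 pachytene, 1 spermatogonial, 2 Sertoli cell, 1 elongating spermatid, 1 peritubular and vascular and 3 macrophage genes. Their part in the members' differences was not tested.

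**Figure D4:**
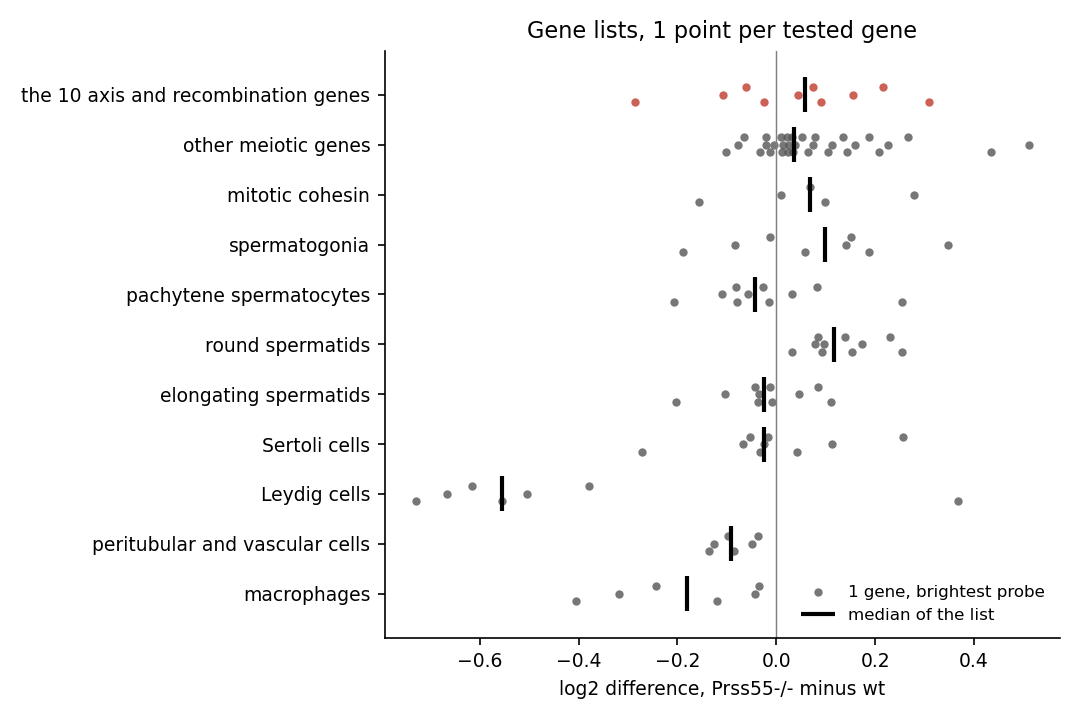
Log2 difference, Prss55-/- minus wt (x axis), of each tested gene by its brightest probe, in the 10 axis and recombination genes (red) and the other lists (grey), with black bars at the medians. The members' median of 0.059 lies near that of the other meiotic genes (0.036), and the Leydig cell list lies apart at -0.56.

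The members lie on 8 chromosomes, and their surroundings on the array were looked at within 1 Mb on either side. No probe was called within that distance of *Sycp1*, *Syce1*, *Tex12*, *Sycp2*, *Sycp3* or *Hormad1*. Around *Smc1b*, on chromosome 15, 5 of 32 tested probes were called (15.6%, against 1.21% over all probes), the nearest in *Fbln1* 0.221 Mb away, at 1.10 (limma adjusted p = 0.036). *Smc1b* itself differed by 0.04. *Dmc1* is on the same chromosome, where 4 of 82 tested probes within 1 Mb were called (4.88%), the nearest in *Apobec3* 0.333 Mb away at 0.71 (limma adjusted p = 0.041), in the direction opposite to *Dmc1*. Near *Rec8* 2 of 80 were called, the nearest in *Homez* 0.770 Mb away at 0.52 (limma adjusted p = 0.017), and near *Syce2* 1 of 90, in *Nacc1* 0.217 Mb away at -0.71 (limma adjusted p = 0.010). *Rec8* lies on chromosome 14, as do the targeted gene *Prss55* and *Ccnb1ip1* of the other meiotic genes. Their probes start at 56244160, 64694275 and 51409317 of mm9. Whether linkage to the targeted locus on the mixed background has a part in their values was not tested.

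What the members share beyond their function was also read from their promoters, 300 bases around each start site in RefSeq on GRCm38.p6, in which all 10 genes were found. Their 12 promoters had a median GC content of 60.3% and 20 CpG dinucleotides, against 52.7% and 7 over 32851 promoters of all genes. The letters TCCCGC, the core that E2F factors recognize, occurred on either strand in 8 of 10 members, all but *Syce1* and *Sycp2*, and in 22.1% of 27025 genes. The E-box CACGTG occurred in 5 (*Hormad1*, *Syce2*, *Sycp1*, *Sycp3* and *Tex12*) against 8.09% of genes, and CNCCTCAG, letters linked to the meiotic initiator STRA8, in 3 (*Syce2*, *Sycp1* and *Tex12*) against 9.12%. None of the 3 words contains another, but in *Syce2* the CNCCTCAG match and an E2F core share bases. TCCCGC and CACGTG each hold a CpG, and no share among promoters of like CpG content was taken. A match is no shown site. The bases before the start are printed for *Sycp1* and *Dmc1*, the members with the highest and the lowest difference, with the E-box of *Sycp1* and the 2 E2F cores of *Dmc1* in capitals. The E2F core and the CNCCTCAG match of *Sycp1* reach past the printed stretch.
Sycp1 upstream, chr3:102936101-102936350, strand -, GRCm38.p6: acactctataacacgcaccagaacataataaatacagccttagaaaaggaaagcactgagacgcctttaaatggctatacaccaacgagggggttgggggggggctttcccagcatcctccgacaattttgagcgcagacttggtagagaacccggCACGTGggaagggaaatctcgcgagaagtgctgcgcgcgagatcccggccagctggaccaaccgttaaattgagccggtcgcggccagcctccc
Dmc1 upstream, chr15:79605110-79605359, strand -, GRCm38.p6: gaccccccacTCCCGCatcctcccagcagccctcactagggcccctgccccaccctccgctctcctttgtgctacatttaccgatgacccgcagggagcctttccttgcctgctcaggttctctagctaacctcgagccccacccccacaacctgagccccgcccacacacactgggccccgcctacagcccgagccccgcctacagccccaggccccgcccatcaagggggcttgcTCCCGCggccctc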

How the data were processed

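Testes of 3 Prss55-/- and 3 wt mice gave total RNA for 6 single-colour Agilent arrays, read with Agilent Feature Extraction 10.7, per the labels. The authors deposited each array's processed signal, a linear intensity corrected for background within the array, and a matrix of log2 values, which their methods describe as quantile-normalized. The matrix columns correlated with their own arrays at 0.999998 or more. The file headers name the build mm9. Control spots and spots called outliers were left out (2 missing values among tested probes), intensities below 1 were set to 1, log2 values were quantile-normalized between arrays, and repeated spots of a probe were averaged. A probe was tested if every spot of it was called well above background on all arrays of either genotype, and 28606 probes met this. They were fitted in R 4.3.3 with limma 3.58.1 (lmFit, eBayes) and two-sided p-values were adjusted by Benjamini-Hochberg, with a threshold of 0.05. The brightest tested probe stood for a gene. The number of arrays limits the precision.

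Members, lists and settings were chosen with earlier results of these data known. Named were the members, *Prss55*, the 5 mitotic cohesin genes and, of the other meiotic genes, the 10 with the lowest limma p; other genes were named after their values were seen. One listed gene is not reported here. Of 125 listed genes 118 were on the array, 7 of them under another symbol. On simulated data of 28604 probes with 50 changed by each size, the limma fit found 20 at a log2 change of 0.5, 42 at 1, 50 at 2 and 49 at 3, with 4 false calls. The simulated noise was normal and independent between arrays, with SDs of the data reassigned among probes, and held no slide effect. These counts therefore give no error rate for a comparison in which genotype and slide coincide. Alternatives covered scaling, background correction, the matrix, filters, outlier spots, blocks, the methods' t-test on the same values, left-out arrays and the choice of probe. Python 3.11.15 served for tables (pandas 2.3.3, numpy 2.4.6) and plots (matplotlib 3.10.9).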

Additional observations from a re-analysis of the deposited data

How the results depend on the processing

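None of the 10 members passed the limma adjusted threshold under any of the 16 alternatives, while the number of probes called over the whole array ran from 13 to 855, against 346. The median difference of the members ranged from 0.024 to 0.071. Over members and alternatives 155 differences kept their direction and 5 did not. The exceptions were *Syce1* (0.00578) and *Sycp2* (0.00827) with normexp background correction, *Sycp2* without wt replicate 1, and *Sycp2* (0.0787) and *Hormad1* (-0.00551) with the mean over a gene's tested probes. With 1 array left out *Sycp2* ranged from -0.0629 to 0.00827. *Smc1a* turned to -0.00553 with normexp and ranged from -0.0205 to 0.0401 with 1 array left out, below 0 without Prss55-/- replicate 1 or wt replicate 2. Other meiotic genes past the threshold numbered 0 to 2 with 1 array left out, 2 without Prss55-/- replicate 1. *Prss55* kept its direction throughout, at -0.90 (adjusted p = 0.071) with the methods' t-test and between -0.96 and -0.84 with 1 array left out. Ranked only among probes well above background on all 6 arrays, the members' median percentile was 83.6. The cause of these shifts was not tested.

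The study's figure legend speaks of 3 pairs of wt and Prss55-/- mice, and the sample labels name no pairs. Same-numbered Prss55-/- and wt arrays correlated in their deviations from the genotype means at -0.05, -0.02 and -0.11. Over 3 arrays per genotype this cannot tell whether the replicate numbers pair the mice. With the replicate block 13 probes were called, 0 of them members, and *Prss55* stood at -0.90 (limma adjusted p = 0.10). With slide as a random block (correlation 0.036) 287 probes were called, the methods' t-test called 87, and no filter on dim probes 140. All Prss55-/- arrays shared a slide that held no wt array, so the slide block cannot take out a slide difference between the genotypes. Without Prss55-/- replicate 1, 2 and 3 there were 855, 63 and 38, and without wt replicate 1, 2 and 3 there were 69, 127 and 377. Dim signal limited 1 *Tex12* probe, and no slide held both genotypes.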
